A study of Mus musculus with 11 samples.

Results

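The genes described here are the core regulators of the G1 phase of the cell cycle in a mouse pancreatic acinar cell line. They are listed by symbol, a list drawn up with earlier results of these data known: the D-type cyclins Ccnd1, Ccnd2 and Ccnd3, the E-type cyclins Ccne1 and Ccne2, the kinases Cdk4, Cdk6 and Cdk2, the kinase inhibitor Cdkn1b (p27) and the retinoblastoma gene Rb1. All 10 were listed among the 23284 genes counted, and 8 passed the filter on low counts. Ccnd2 and Cdk6 did not pass it and are given as reads.

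RNA-seq libraries of the acinar line 266-6 fell into 4 groups: Arid1a siRNAs with EGF (3 libraries), Arid1a siRNAs with vehicle (3), control siRNA with EGF (3) and control siRNA with vehicle (2). Cells received Arid1a siRNAs at 25 nM, or a non-targeting siRNA in the controls, for 48 h, spent the night without serum, and were then given EGF at 40 ng/ml or its vehicle, 0.1% BSA, for 8 h. EGF, the epidermal growth factor, signals to the nucleus through its receptor and the ERK kinases. Arid1a encodes a subunit of the BAF chromatin remodelling complex, and the design asks how the growth factor response and this complex meet. The line came from a tumour of a mouse that carried the SV40 T antigen under an elastase promoter, and T antigen is known to bind the RB family proteins. Whether these libraries expressed it was not tested. A transient siRNA leaves some of its target: Arid1a had 145, 122 and 152 CPM with Arid1a siRNAs and EGF and 151, 157 and 127 CPM with Arid1a siRNAs alone, against 308, 263 and 300.2 CPM with control siRNA and EGF and 292 and 399.9 CPM with control siRNA alone. CPM are counts scaled to a common library size by TMM, a method that matches libraries on the bulk of their genes. The labels name triplicates and, for control siRNA, duplicates without saying that they were separate cultures, so every p-value measures the spread between these libraries, which may be technical.

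In G1, D-type cyclins bind Cdk4 and Cdk6, and the complexes phosphorylate the RB protein, which then releases E2F transcription factors. E2F factors drive the E-type cyclins, which activate Cdk2 and carry the cell into S phase, while p27 binds cyclin and Cdk2 complexes and keeps them inactive. Growth factors are known to induce Ccnd1 through ERK signalling. Acinar cells of the adult pancreas divide little, and they re-enter the cycle during regeneration.

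Promoter sequences are shown for both kinases that pair with D-type cyclins, since one was the most abundant RNA of the 10 genes and the other was barely detected, and for Ccne1 and Cdkn1b, whose RNA changed most. The sequences are RefSeq's, on build GRCm38.p6, and each gives the 250 bases before the annotated start, 5′ to 3′ on the gene's strand. The Cdk4 promoter lies at chr10:127063285-127063534 on the plus strand and the Cdk6 promoter at chr5:3343643-3343892 on the plus strand. The Ccne1 promoter lies at chr7:38107491-38107740 on the minus strand and that of Cdkn1b at chr6:134920151-134920400 on the plus strand. Capitals mark the E-box CACGTG in the kinases and the GC box GGGCGG, or CCGCCC on the other strand, in Ccne1 and Cdkn1b.
Cdk4: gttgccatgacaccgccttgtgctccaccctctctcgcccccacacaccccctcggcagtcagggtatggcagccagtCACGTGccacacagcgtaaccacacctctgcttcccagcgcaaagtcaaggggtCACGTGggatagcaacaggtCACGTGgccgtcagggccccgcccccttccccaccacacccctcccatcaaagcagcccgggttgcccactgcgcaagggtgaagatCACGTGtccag
Cdk6: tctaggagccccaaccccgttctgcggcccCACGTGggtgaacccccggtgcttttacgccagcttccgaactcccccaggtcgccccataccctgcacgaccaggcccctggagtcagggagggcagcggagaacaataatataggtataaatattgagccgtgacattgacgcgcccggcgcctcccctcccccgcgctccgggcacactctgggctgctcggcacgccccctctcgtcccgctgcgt
Ccne1: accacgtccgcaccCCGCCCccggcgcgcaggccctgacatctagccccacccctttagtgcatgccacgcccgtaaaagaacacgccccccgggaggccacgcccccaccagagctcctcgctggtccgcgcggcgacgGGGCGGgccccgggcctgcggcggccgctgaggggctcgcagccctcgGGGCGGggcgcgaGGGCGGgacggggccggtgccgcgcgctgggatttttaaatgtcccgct
Cdkn1b: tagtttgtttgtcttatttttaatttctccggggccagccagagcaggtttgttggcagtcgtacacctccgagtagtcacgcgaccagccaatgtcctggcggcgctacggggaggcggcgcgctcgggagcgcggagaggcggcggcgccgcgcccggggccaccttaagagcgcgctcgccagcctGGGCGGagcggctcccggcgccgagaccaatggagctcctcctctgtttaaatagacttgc
The 4 E-boxes of Cdk4 began 172, 118, 98 and 11 bases before the start. The E-box, which reads the same on both strands, was found in 6.02% of the 32851 promoters in the table, searched over the same length, and 7 promoters (0.0213%) held 4 or more. Cdk6 held 1, at 220 bases. The GC boxes of Ccne1 began 236, 110, 62 and 49 bases before the start, and the single one of Cdkn1b 61 bases before it. Of the other matched genes, Cdk2 held the most GC boxes, 5. Ccnd3 held 2 and 1 at its annotated starts, Cdk4 held 1 and Cdk6 held 0. A search for E2F words (TTTSSCGC, S for C or G, on either strand) found 1, in Cdk2 at 140 bases, where 1.86% of promoters held a match. A GC box stood in 32.7% of promoters, and 1344 (4.09%) held 4 or more. These matches are descriptions of letters, and no binding was measured. Promoters were matched for 6 of the 10 genes. Those of Ccnd1, Ccnd2, Ccne2 and Rb1 were not.

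Per transcript length, Cdk4 RNA stood far above all the others. In the authors' FPKM (fragments scaled to transcript length and depth, given for 3 of the groups), Cdk4 averaged 805 FPKM with Arid1a siRNAs and EGF, 789 FPKM with Arid1a siRNAs alone and 949 FPKM with control siRNA and EGF. It lay at the 99.8 percentile of the table's genes in each of these groups. Cdk2 followed at 72.6, 73.1 and 80.3 FPKM in the same order of groups, and the ratio of Cdk4 to Cdk2 was 11.1, 10.8 and 11.8. Cdkn1b came next with the Arid1a siRNAs, at 43.0 FPKM with EGF and 51.0 FPKM without it. With control siRNA and EGF it averaged 83.1 FPKM, and its libraries overlapped those of Cdk2 there.

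Ccnd3 was the main D-type cyclin RNA of these cells. It made up 97.6%, 97.7% and 97.5% of the summed FPKM of the 3 D-type cyclins with Arid1a siRNAs and EGF, with Arid1a siRNAs alone and with control siRNA and EGF. Its level was 30.6, 27.5 and 37.1 FPKM in these groups, while Ccnd1 reached 0.712, 0.635 and 0.899 FPKM. Among the E-type cyclins the order differed between groups. Ccne2 stood above Ccne1 with the Arid1a siRNAs, at 14.96 against 7.89 FPKM with EGF and 15.5 against 5.99 FPKM without it, and below it with control siRNA and EGF, at 15.99 against 20.2 FPKM. Rb1 was at 5.20, 7.39 and 4.22 FPKM, above Ccne1 with Arid1a siRNAs alone and below it in both EGF groups.

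**Figure D1:**
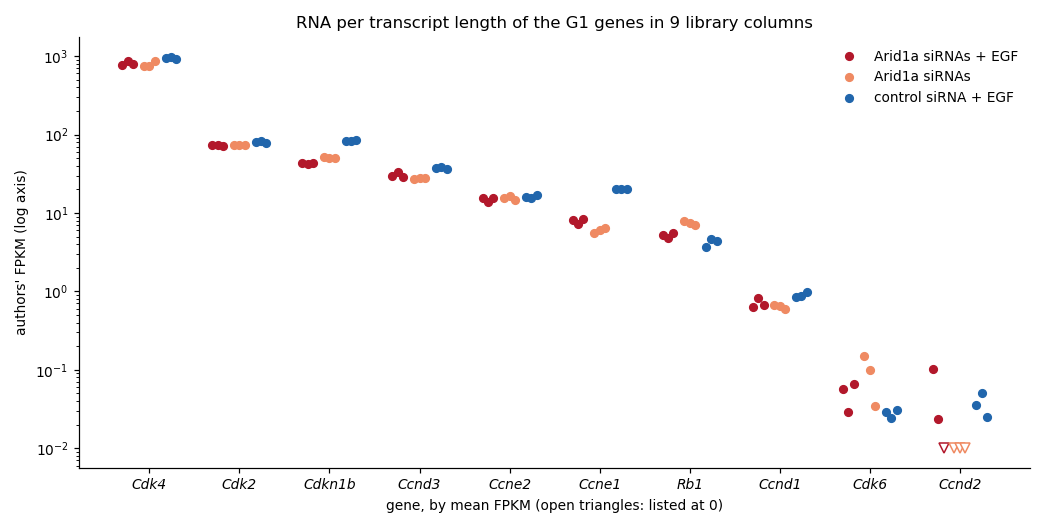
The authors' FPKM of each G1 gene on a log axis, with 1 point per library column in the 3 groups whose columns match a sample; open triangles mark columns listed at 0. Cdk4 lies at the top in all 3 groups, Ccnd1 between 0.635 and 0.899 FPKM on average, and Cdk6 and Ccnd2 at the bottom.

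Ccnd2 and Cdk6 were at the floor of detection. Ccnd2 had 9, 2 and 0 reads with Arid1a siRNAs and EGF and 0 reads in all 3 libraries with Arid1a siRNAs alone, against 3, 5 and 2 reads with control siRNA and EGF and 2 and 1 reads with control siRNA alone. Cdk6 had 2, 1 and 2 reads with Arid1a siRNAs and EGF and 4, 5 and 1 reads with Arid1a siRNAs alone, against 1, 1 and 1 reads with control siRNA and EGF and 0 and 2 reads with control siRNA alone. With 24 reads of Ccnd2 and 20 of Cdk6 over 11 libraries of 10279763 to 19773007 counted reads, no difference between groups was read from either. A count of 0 allows up to 3 reads, which is 0.152 to 0.280 CPM per library, for counting error alone.

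**Figure D2:**
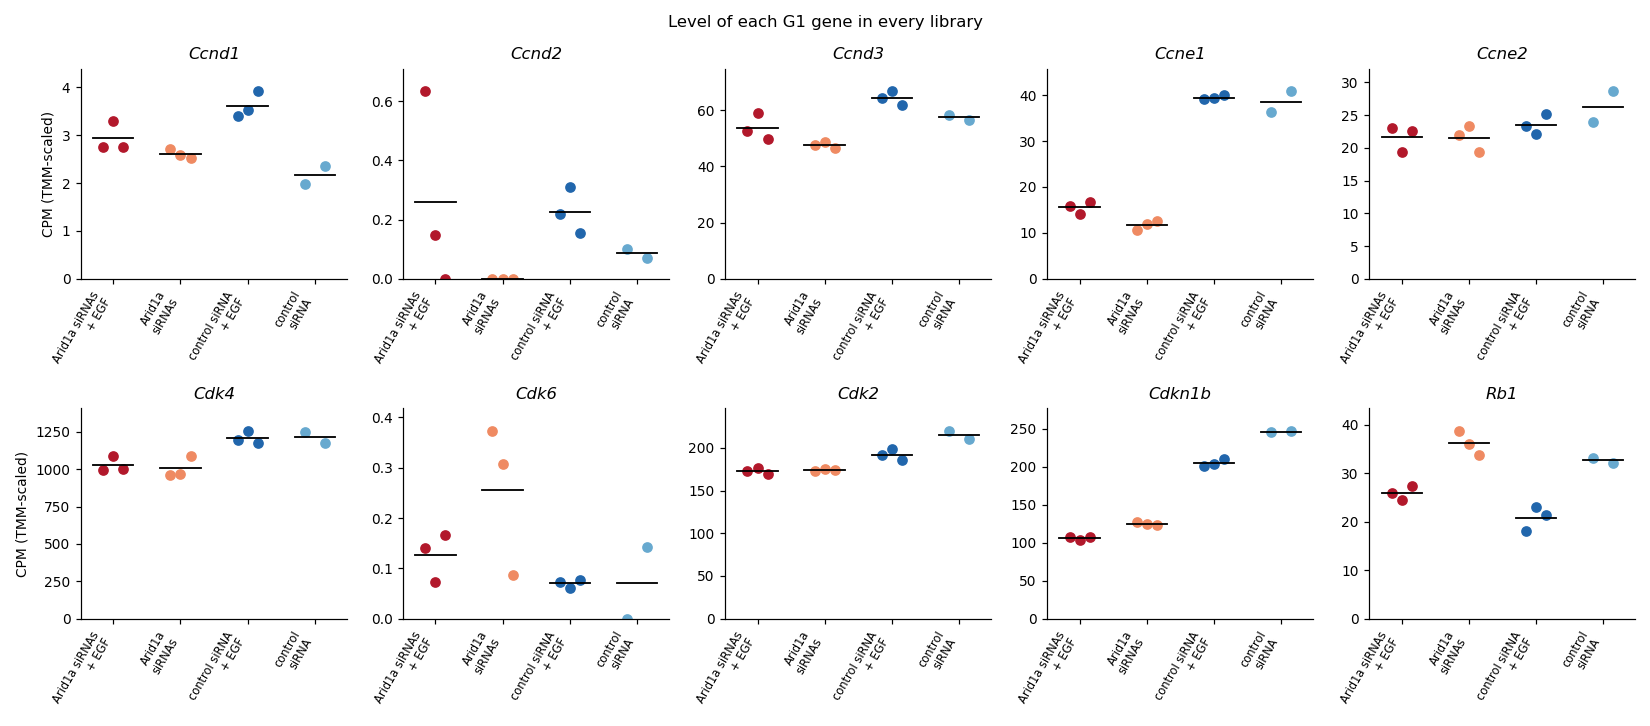
CPM of each of the 10 G1 genes in every library, by group, with the group mean as a bar; each panel has its own axis that starts at 0. Ccne1 and Cdkn1b lie lower in all 6 libraries with Arid1a siRNAs, and Rb1 lies lower in both EGF groups than in the matching groups without EGF.

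The groups were compared gene by gene with edgeR's quasi-likelihood test over all 13343 genes that passed the filter, two-sided, and a gene was called at an adjusted p under 0.05. The EGF comparisons and the siRNA comparisons share libraries, so their values stand side by side and are not counted as separate evidence. Arid1a siRNAs without EGF lowered Ccnd3, Ccne1, Cdk4, Cdk2 and Cdkn1b. Thus 5 of the 8 tested G1 genes fell and 0 rose, where 18.8% of all genes were called higher and 20.1% lower. The median log2 change was -0.27 over the 8 and -0.01 over all genes. In EGF-treated cells the Arid1a siRNAs lowered these 5 genes and raised Rb1, to give 1 higher and 5 lower, against 23.7% higher and 23.2% lower among all genes, with medians of -0.25 and 0.00. The split over all genes without EGF depended on the scaling: 2505 higher and 2685 lower with TMM became 3129 and 2025 with upper-quartile factors. The share of the 8 that fell was above the background in both siRNA comparisons, and no test was made of that excess.

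EGF with control siRNA raised Ccnd1 and lowered Cdk2, Cdkn1b and Rb1, which is 1 of the 8 higher and 3 lower, where 16.8% of all genes were called higher and 18.8% lower. Without control siRNA replicate 1 this came to 2 called genes, both lower, since Ccnd1 and Cdk2 no longer passed. EGF with Arid1a siRNAs raised Ccne1 and lowered Cdkn1b and Rb1, which is 1 higher and 2 lower, where 13.0% of all genes were called higher and 10.4% lower. That split over all genes also turned with the scaling: 1734 higher and 1385 lower with TMM became 1509 and 1683 with upper-quartile factors. The median log2 change was -0.08 over the 8 and -0.03 over all genes with control siRNA, and 0.02 and -0.01 with Arid1a siRNAs. The check gene of EGF signalling, the ERK phosphatase Dusp6, averaged 84.8 ± 2.42 CPM (SD, n = 3) with Arid1a siRNAs and EGF and 19.1 ± 0.472 CPM (n = 3) with Arid1a siRNAs alone, against 142 ± 9.39 CPM (n = 3) with control siRNA and EGF and 16.8 ± 2.01 CPM (n = 2) with control siRNA alone. EGF changed Dusp6 by 2.15 on the log2 scale with Arid1a siRNAs and by 3.08 with control siRNA. The difference between these responses, -0.94, was called (interaction, edgeR adjusted p = 0.00149).

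The difference between the EGF responses, tested as an interaction, was called for 0 of the 8 G1 genes by edgeR, and likewise for 0 by DESeq2 and 0 by limma-voom. Over all genes 0.562% were called higher and 0.382% lower, which is 126 genes. Leaving out 1 library gave 55 to 153 calls, the fewest without replicate 1 of control siRNA with EGF, and DESeq2 gave 177. Among the 8 G1 genes, at an unadjusted p under 0.05 there were 2, Ccnd1 and Ccne1, described below.

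**Figure D3:**
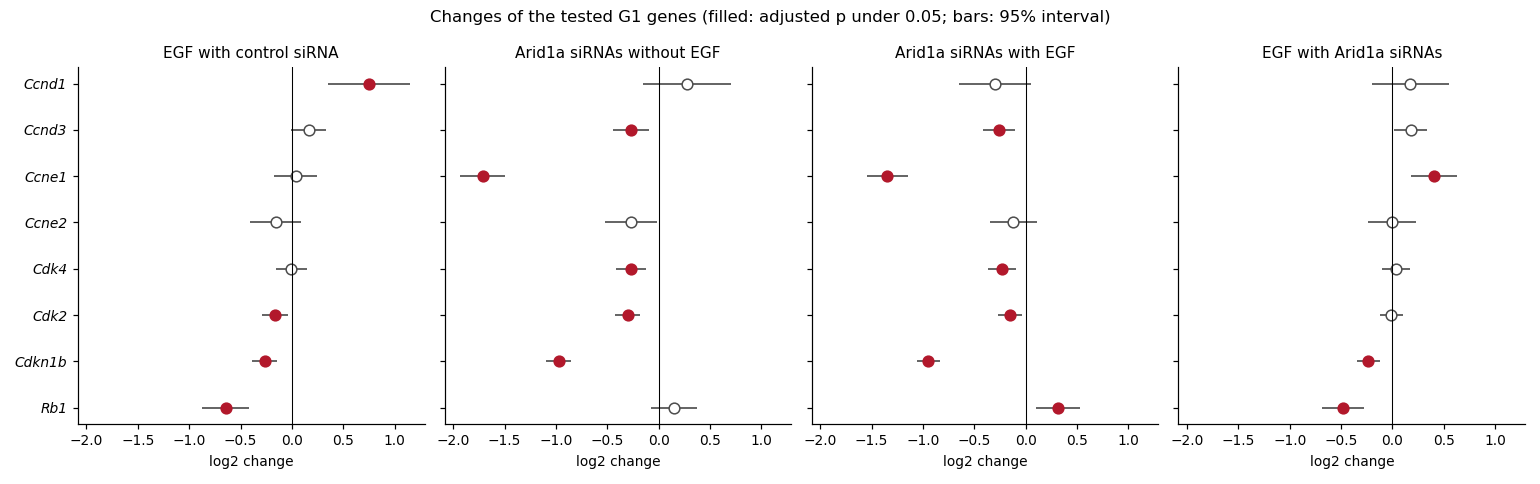
Log2 change of the 8 tested G1 genes in the 4 comparisons, as points with 95% intervals; filled points passed an adjusted p under 0.05. The Ccne1 points at -1.72 and -1.35 and the Cdkn1b points at -0.97 and -0.95 lie farthest from 0 in the siRNA comparisons, and Ccnd1 at 0.75 and Rb1 at -0.65 farthest in the EGF comparison with control siRNA.

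Ccnd1 encodes cyclin D1, the D-type cyclin most often tied to growth factor signals. It was sparse, with 29 to 57 reads per library. Its level was 2.75, 3.29 and 2.76 CPM with Arid1a siRNAs and EGF and 2.70, 2.58 and 2.52 CPM with Arid1a siRNAs alone, against 3.40, 3.52 and 3.92 CPM with control siRNA and EGF and 1.97 and 2.36 CPM with control siRNA alone. The control siRNA libraries with EGF were the highest and those without it the lowest, with no overlap between any of the 4 groups. EGF with control siRNA raised Ccnd1 1.68-fold, a log2 change of 0.75 ± 0.18 (SE, edgeR adjusted p = 0.00518). Without control siRNA replicate 1, the library with the lowest value, the change was 0.60 with an edgeR adjusted p of 0.0791. EGF with Arid1a siRNAs gave 0.18 ± 0.17 (edgeR adjusted p = 0.553), with a 95% interval of -0.19 to 0.55.

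The EGF response of Ccnd1 was lower by 0.57 ± 0.25 log2 units with Arid1a siRNAs than with control siRNA, which had an unadjusted p of 0.0413 and did not pass the correction (edgeR adjusted p = 0.474). The log2 change of Ccnd1 with Arid1a siRNAs was 0.28 ± 0.20 without EGF (edgeR adjusted p = 0.318) and -0.30 ± 0.16 with EGF (edgeR adjusted p = 0.158). On the RefSeq map Ccnd1 overlaps LTO1 (Oraov1 in these files), which had 19.3 to 30.2 CPM. Overlap here means that whole gene spans, introns included, share bases. Only where exons coincide can reads of the genes not be told apart in an unstranded library, and the share of such reads was not tested. Oraov1 fell by 0.50 with EGF and control siRNA (edgeR adjusted p = 0.000486), opposite in direction to Ccnd1. With Arid1a siRNAs and no EGF it changed by -0.29 (edgeR adjusted p = 0.0184), and it was not called in the other comparisons.

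Ccnd3, cyclin D3, had 52.5, 59.1 and 49.7 CPM with Arid1a siRNAs and EGF and 47.5, 48.8 and 46.5 CPM with Arid1a siRNAs alone, against 64.4, 66.7 and 61.7 CPM with control siRNA and EGF and 58.4 and 56.4 CPM with control siRNA alone. All 3 libraries with Arid1a siRNAs lay below both of their controls without EGF, and likewise below all 3 of them with EGF. Without EGF it fell by 0.27 ± 0.08 on the log2 scale (edgeR adjusted p = 0.0126), and with EGF it fell by 0.26 ± 0.07 (edgeR adjusted p = 0.00666). Upper-quartile factors ended the call without EGF, with a change of -0.21 (edgeR adjusted p = 0.0523), and so did leaving out control siRNA replicate 1 (edgeR adjusted p = 0.0813). EGF gave 0.18 ± 0.07 with Arid1a siRNAs (edgeR adjusted p = 0.0875) and 0.16 ± 0.08 with control siRNA (edgeR adjusted p = 0.111). The difference between these responses was 0.01, with a 95% interval of -0.21 to 0.23. The overlapping gene Bysl, at 49.5 to 104 CPM, moved the same way: with Arid1a siRNAs it fell by 0.37 without EGF (edgeR adjusted p = 0.000384) and by 0.48 with EGF (edgeR adjusted p = 8.86e-06). EGF raised Bysl by 0.50 with Arid1a siRNAs (edgeR adjusted p = 3.09e-05) and by 0.60 with control siRNA (edgeR adjusted p = 4.97e-06). The part of Bysl in the Ccnd3 counts was not tested.

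Ccne1, cyclin E1, showed the largest change of the 8 genes. It had 15.8, 14.04 and 16.8 CPM with Arid1a siRNAs and EGF and 10.6, 11.9 and 12.6 CPM with Arid1a siRNAs alone, against 39.1, 39.4 and 40.0 CPM with control siRNA and EGF and 36.3 and 40.9 CPM with control siRNA alone. The highest library with Arid1a siRNAs lay below the lowest control by a wide gap. Arid1a siRNAs lowered Ccne1 3.28-fold without EGF, a log2 change of -1.72 ± 0.10 (edgeR adjusted p = 3.21e-08). With EGF they lowered it 2.54-fold, a log2 change of -1.35 ± 0.09 (edgeR adjusted p = 3.95e-08). These values stayed between -1.80 and -1.63 and between -1.40 and -1.26 in the alternative fits.

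EGF raised Ccne1 1.32-fold with Arid1a siRNAs, by 0.40 ± 0.10 on the log2 scale (edgeR adjusted p = 0.00937), a call that ended without replicate 3 of the EGF-treated Arid1a siRNA libraries (0.34, edgeR adjusted p = 0.05004). With control siRNA its libraries overlapped and the change was 0.04 ± 0.09 (edgeR adjusted p = 0.799). The difference between the responses was 0.37 ± 0.14, with a 95% interval of 0.08 to 0.66 and an unadjusted p of 0.0162, and it did not pass the correction (edgeR adjusted p = 0.323). Even with EGF, Ccne1 with Arid1a siRNAs lay far below its level in either control group.

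Ccne2, cyclin E2, did not pass the test in any comparison. Its level was 23.0, 19.4 and 22.5 CPM with Arid1a siRNAs and EGF and 22.0, 23.3 and 19.4 CPM with Arid1a siRNAs alone, against 23.3, 22.1 and 25.1 CPM with control siRNA and EGF and 23.9 and 28.7 CPM with control siRNA alone. The EGF groups overlapped between siRNAs, and without EGF the Arid1a siRNA libraries lay just below both controls. The log2 change with Arid1a siRNAs was -0.27 ± 0.11 without EGF (edgeR adjusted p = 0.0697; 95% interval -0.52 to -0.03) and -0.12 ± 0.10 with EGF (edgeR adjusted p = 0.364; 95% interval -0.34 to 0.10). Leaving out control siRNA replicate 1 turned the first into a call (-0.40, edgeR adjusted p = 0.0363). EGF gave -0.00 ± 0.11 with Arid1a siRNAs (edgeR adjusted p = 0.994) and -0.16 ± 0.11 with control siRNA (edgeR adjusted p = 0.305). The overlapping gene Ints8, at 56.8 to 91.5 CPM, fell with Arid1a siRNAs by 0.37 without EGF (edgeR adjusted p = 0.000642) and by 0.43 with EGF (edgeR adjusted p = 4.81e-05), and its part in the Ccne2 counts was not tested.

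The balance between the E-type cyclins also differed. Of the reads of both genes, Ccne1 held 41.8% ± 1.03 (SD, n = 3) with Arid1a siRNAs and EGF and 35.2% ± 3.65 (n = 3) with Arid1a siRNAs alone, against 62.7% ± 1.33 (n = 3) with control siRNA and EGF and 59.6% ± 1.08 (n = 2) with control siRNA alone. No 2 of these groups overlapped. The exact permutation p was made two-sided by doubling the smaller tail. It was 0.1 for Arid1a siRNAs with EGF, the smallest that 3 against 3 libraries can give in this way. Without EGF it was 0.2, the smallest for 3 against 2, so neither of these tests between 2 groups can go below 0.05. Over the 8 such tests of the share and of the Cdkn1b to Cdk2 ratio, the lowest Benjamini-Hochberg adjusted permutation p was 0.2.

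**Figure D4:**
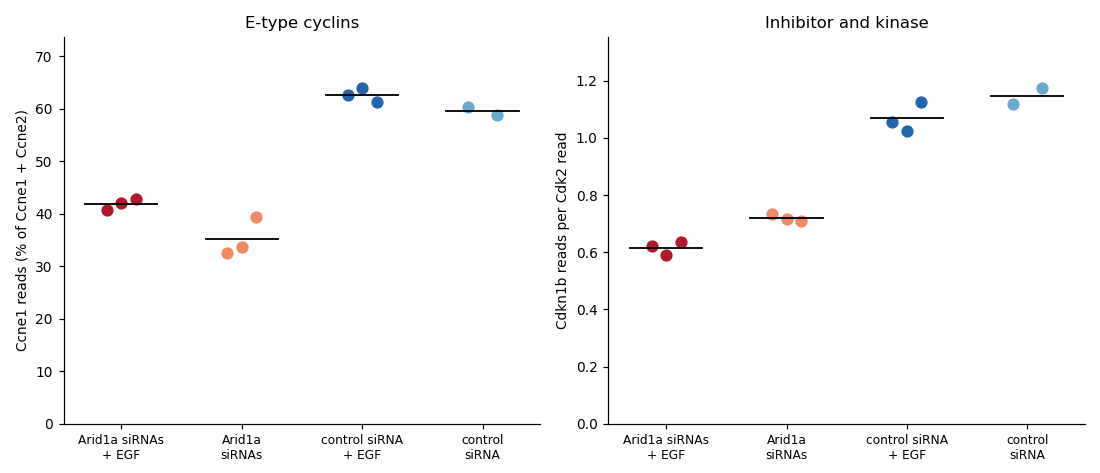
Left, the share of Ccne1 in the reads of Ccne1 and Ccne2, in percent; right, Cdkn1b reads per Cdk2 read; points are libraries and bars are group means. All 6 libraries with Arid1a siRNAs lie below all 5 with control siRNA in both panels.

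With Arid1a siRNAs the kinases had smaller log2 changes than Ccne1 and Cdkn1b, both with and without EGF. Cdk4, a partner of the D-type cyclins, had 995, 1092 and 1004 CPM with Arid1a siRNAs and EGF and 961, 969 and 1089 CPM with Arid1a siRNAs alone, against 1197, 1256 and 1178 CPM with control siRNA and EGF and 1251 and 1178 CPM with control siRNA alone. The siRNA groups did not overlap, and the EGF groups did with either siRNA. It fell by 0.27 ± 0.07 on the log2 scale with Arid1a siRNAs and no EGF (edgeR adjusted p = 0.00455) and by 0.23 ± 0.06 with EGF (edgeR adjusted p = 0.00472). The EGF changes were 0.03 ± 0.06 with Arid1a siRNAs (95% interval -0.09 to 0.16) and -0.01 ± 0.07 with control siRNA (95% interval -0.15 to 0.13). Tspan31, which overlaps Cdk4, had 194 to 249.97 CPM and fell by 0.20 with Arid1a siRNAs and EGF (edgeR adjusted p = 0.0155), and its part in the Cdk4 counts was not tested.

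Cdk2, the partner of the E-type cyclins, had 173, 177 and 169 CPM with Arid1a siRNAs and EGF and 173, 175 and 175 CPM with Arid1a siRNAs alone, against 191, 199 and 186 CPM with control siRNA and EGF and 219.8 and 210.2 CPM with control siRNA alone. Only the libraries with Arid1a siRNAs overlapped each other. Without EGF it fell by 0.30 ± 0.05 on the log2 scale with Arid1a siRNAs (edgeR adjusted p = 0.000475), and with EGF by 0.15 ± 0.05 (edgeR adjusted p = 0.0185). Upper-quartile factors ended the call with EGF (-0.11; edgeR adjusted p = 0.0983), as did a fit without any one of 3 libraries (edgeR adjusted p = 0.0511 to 0.0838). EGF with control siRNA lowered Cdk2, with a log2 change of -0.16 ± 0.05 (edgeR adjusted p = 0.0280). That call ended in an unfiltered fit (edgeR adjusted p = 0.0966), with the replicate block (0.0768), in a fit of only the groups compared (0.0826), and without any one of 3 libraries (0.0759 to 0.154). With Arid1a siRNAs the EGF change was -0.01 ± 0.05 (95% interval -0.11 to 0.09). Pmel, which overlaps Cdk2, had 1.46 to 2.87 CPM. It rose by 0.74 with Arid1a siRNAs and no EGF (edgeR adjusted p = 0.0197) and was not called in the other comparisons. The part of Pmel in the Cdk2 counts was not tested.

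Cdkn1b, which encodes p27, separated all 4 groups. It had 108, 104 and 107.3 CPM with Arid1a siRNAs and EGF and 127, 125 and 124 CPM with Arid1a siRNAs alone, against 202, 204 and 209.8 CPM with control siRNA and EGF and 245.5 and 247 CPM with control siRNA alone. Libraries with both agents were the lowest and those with neither the highest. Arid1a siRNAs lowered it 1.97-fold without EGF, a log2 change of -0.97 ± 0.05 (edgeR adjusted p = 2.11e-08). With EGF the fall was 1.93-fold, or -0.95 ± 0.05 (edgeR adjusted p = 4.33e-09). EGF lowered it 1.18-fold with Arid1a siRNAs, or -0.24 ± 0.05 (edgeR adjusted p = 0.00242), while the EGF fall with control siRNA was -0.26 ± 0.05 (edgeR adjusted p = 0.000976). The difference between the EGF responses was 0.03 (edgeR adjusted p = 0.965).

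Per read of Cdk2, the kinase that p27 binds, Cdkn1b counted 0.616 ± 0.0228 reads (SD, n = 3) with Arid1a siRNAs and EGF and 0.720 ± 0.0138 (n = 3) with Arid1a siRNAs alone, against 1.07 ± 0.0528 (n = 3) with control siRNA and EGF and 1.146 ± 0.0415 (n = 2) with control siRNA alone. The ratio depends on transcript lengths and was compared only between libraries. Groups with different siRNAs did not overlap. The exact permutation p, with the smaller tail doubled, was 0.1 with EGF and 0.2 without it, the smallest possible in each case with that doubling. With control siRNA the libraries with and without EGF overlapped (exact permutation p = 0.4).

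Rb1 encodes the protein that holds E2F factors until Cdk4 and Cdk2 complexes phosphorylate it. It had 26.0, 24.5 and 27.3 CPM with Arid1a siRNAs and EGF and 38.7, 36.1 and 33.8 CPM with Arid1a siRNAs alone, against 18.04, 23.01 and 21.4 CPM with control siRNA and EGF and 33.2 and 32.1 CPM with control siRNA alone. Both EGF groups lay below both groups without EGF. EGF lowered Rb1 1.40-fold with Arid1a siRNAs, a log2 change of -0.48 ± 0.09 (edgeR adjusted p = 0.00164). With control siRNA the fall was 1.56-fold, or -0.65 ± 0.10 (edgeR adjusted p = 0.000187). The responses differed by 0.17 (edgeR adjusted p = 0.805).

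Arid1a siRNAs raised Rb1 1.24-fold in EGF-treated cells, a log2 change of 0.31 ± 0.10 (edgeR adjusted p = 0.0144), the only one of the 8 genes that rose in that comparison. Without control siRNA with EGF replicate 1, the library with the lowest Rb1, the change was 0.22 and the call was lost (edgeR adjusted p = 0.0784). Without EGF the siRNA change was 0.15 ± 0.10 (edgeR adjusted p = 0.266). Lpar6, a receptor gene that overlaps Rb1, had 5.41 to 11.9 CPM and moved the other way. It fell by 0.54 with Arid1a siRNAs and EGF (edgeR adjusted p = 0.00331) and rose by 0.55 with EGF and control siRNA (edgeR adjusted p = 0.00769).

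The wider G1 network was read from a list of 34 genes, all of which passed the filter. Its genes, like the 10 above, were chosen with earlier results of these data known. With Arid1a siRNAs and no EGF, 2 of the 34 rose and 20 fell, where 18.8% of all genes rose and 20.1% fell. With EGF 4 rose and 16 fell, where 23.7% of all genes rose and 23.2% fell. The median log2 change was -0.31 without EGF and -0.16 with it, where all genes had -0.01 and 0.00. EGF with Arid1a siRNAs gave 8 rises and 4 falls, beside 13.0% and 10.4% of all genes, and EGF with control siRNA gave 7 rises and 8 falls, beside 16.8% and 18.8%. The medians over the 34 were -0.06 and -0.11.

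E2F and DP factors, several of which RB or its relatives restrain, made up the largest share of the falls. With Arid1a siRNAs, 9 of the 10 fell without EGF, where 20.1% of all genes fell, and 9 fell with it, where 23.2% did. The other gene was E2f1, the classic activator E2F, which is named here after its values were seen. It averaged 91.7 ± 2.23 CPM (SD, n = 3) with Arid1a siRNAs and EGF against 82.0 ± 0.772 CPM (n = 3) with control siRNA and EGF, a log2 rise of 0.16 (edgeR adjusted p = 0.0363), while its log2 difference was -0.05 without EGF (edgeR adjusted p = 0.575). E2f8, a repressor E2F, averaged 36.6 ± 3.22 CPM (SD, n = 3) with Arid1a siRNAs and EGF and 40.8 ± 3.13 CPM (n = 3) with Arid1a siRNAs alone, against 67.5 ± 0.997 CPM (n = 3) with control siRNA and EGF and 78.3 ± 9.96 CPM (n = 2) with control siRNA alone. Its log2 change was -0.93 without EGF (edgeR adjusted p = 3.27e-06) and -0.88 with EGF (edgeR adjusted p = 1.39e-06). E2f6, a repressor that acts without RB, changed by -0.83 and -0.85 in these comparisons (edgeR adjusted p = 1.69e-05 and 3.08e-06). E2f2, an activator, changed by -0.78 and -0.72 (edgeR adjusted p = 9.67e-07 and 5.98e-07). Tfdp1, a DP partner with which most E2F factors bind DNA, changed by -0.66 and -0.62 (edgeR adjusted p = 3.06e-06 and 1.12e-06). EGF left most of the 10 uncalled: 3 rose and 1 fell with Arid1a siRNAs, and 1 rose and 2 fell with control siRNA, counts to be set beside 13.0% and 10.4% of all genes with Arid1a siRNAs and 16.8% and 18.8% with control siRNA. The one that fell in both EGF comparisons was E2f2, by -0.42 with Arid1a siRNAs (edgeR adjusted p = 0.000256) and -0.49 with control siRNA (edgeR adjusted p = 5.22e-05).

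The 6 other CDK inhibitors responded to EGF in both directions. With Arid1a siRNAs 3 rose and 2 fell, where 13.0% of all genes rose and 10.4% fell, and with control siRNA 2 rose and 3 fell, where 16.8% rose and 18.8% fell. Cdkn2b (p15), which binds Cdk4 and Cdk6, averaged 20.3 ± 0.935 CPM (SD, n = 3) with Arid1a siRNAs and EGF and 9.08 ± 0.630 CPM (n = 3) with Arid1a siRNAs alone, against 21.9 ± 2.93 CPM (n = 3) with control siRNA and EGF and 12.3 ± 0.811 CPM (n = 2) with control siRNA alone. EGF raised it by 1.16 on the log2 scale with Arid1a siRNAs (edgeR adjusted p = 6.28e-06), and by 0.82 where the siRNA was the control (edgeR adjusted p = 9.87e-05). Cdkn1a (p21), a Cdk2 inhibitor and p53 target, rose with EGF by 0.78 with Arid1a siRNAs (edgeR adjusted p = 3.36e-05) and by 0.47 with control siRNA (edgeR adjusted p = 0.00191), and these responses were not shown to differ (interaction, edgeR adjusted p = 0.454). Cdkn2c (p18), a further Cdk4 and Cdk6 inhibitor, fell with EGF by 0.29 with Arid1a siRNAs (edgeR adjusted p = 0.00217) and by 0.29 with control siRNA (edgeR adjusted p = 0.00196). With Arid1a siRNAs and no EGF 5 of the 6 fell, where 20.1% of all genes did, and with EGF 1 fell, where 23.2% did.

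Over all genes, the interaction was called higher for 0.562% and lower for 0.382%. Among the 34 genes, Cdkn1c (p57), a relative of p27, was the only one with a called interaction. It averaged 90.5 ± 4.22 CPM (SD, n = 3) with Arid1a siRNAs and EGF and 111 ± 12.03 CPM (n = 3) with Arid1a siRNAs alone, against 92.8 ± 2.44 CPM (n = 3) with control siRNA and EGF and 158 ± 5.18 CPM (n = 2) with control siRNA alone. EGF changed it by -0.29 with Arid1a siRNAs (edgeR adjusted p = 0.00903) and by -0.77 with control siRNA (edgeR adjusted p = 3.01e-06). Between these responses the difference of 0.48 ± 0.11 passed narrowly (edgeR adjusted p = 0.0464). Across the alternative fits the adjusted p of that difference ran from 0.00614 to 0.142, and it missed the threshold in most of them.

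The remaining lists have 2 to 6 genes each. In a list of 5 or 6 a single rise or fall is near the background, and 2 genes are too few to be set beside it. Of all genes, 18.8% rose and 20.1% fell with Arid1a siRNAs and no EGF, and 23.7% and 23.2% with Arid1a siRNAs and EGF. The shares were 16.8% and 18.8% for EGF with control siRNA, and 13.0% and 10.4% for EGF where the siRNAs were those to Arid1a. Both relatives of Rb1 rose with Arid1a siRNAs and EGF and 1 rose without EGF, with 0 falls in these siRNA comparisons. EGF gave 1 fall and 0 rises among them with Arid1a siRNAs, and likewise with control siRNA. The 6 activators of CDKs had 3 falls and 0 rises with Arid1a siRNAs in each comparison, and EGF gave 1 rise with Arid1a siRNAs and 3 with control siRNA. SCF ubiquitin ligase parts, which mark cyclin E1 and p27 for degradation, had 3 falls of 5 genes with Arid1a siRNAs in each comparison and 1 rise with EGF in each. That rise was Cul1, the scaffold, by 0.22 with Arid1a siRNAs (edgeR adjusted p = 0.00509) and 0.41 with control siRNA (edgeR adjusted p = 5.43e-05). The MuvB core, which joins RB relatives in a repressor complex, had 1 rise of 5 with Arid1a siRNAs in each comparison, and EGF gave 0 falls with Arid1a siRNAs and 2 with control siRNA. No difference between these counts was tested.

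**Figure D5:**
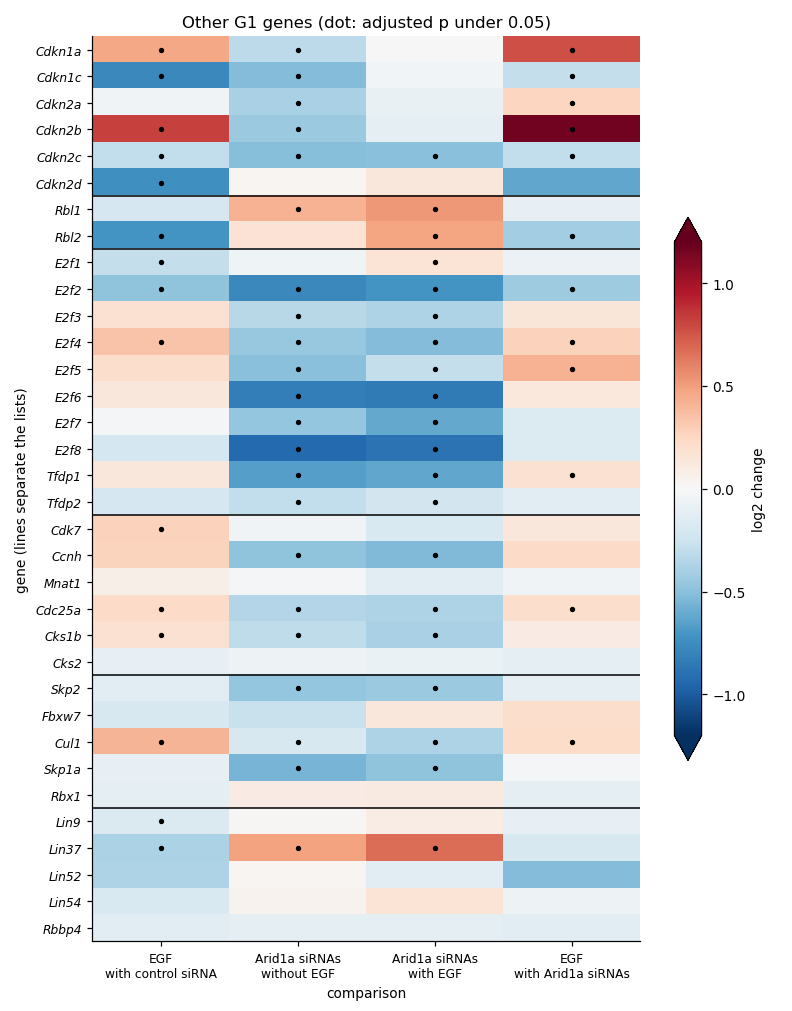
Log2 change of the 34 other G1 genes in the 4 comparisons, red for higher and blue for lower, with a dot where the adjusted p was under 0.05 and lines between the lists. The E2F and DP block is blue in both siRNA columns apart from E2f1, and Cdkn2b and Cdkn1a are red in both EGF columns.

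The genes whose log2 CPM followed Ccnd1 most closely over the 11 libraries, among 9455 searched, were Mtrr (Pearson r = 0.93), Tfap4 (0.92) and Klf4 (0.92). Mtrr averaged 32.6 CPM with Arid1a siRNAs and EGF and 27.8 CPM with Arid1a siRNAs alone, against 35.9 CPM with control siRNA and EGF and 22.2 CPM with control siRNA alone, which is the order of the Ccnd1 group means. For Ccne1 they were Wasf1, Actn4 and Api5, each with r = 0.99. Actn4 averaged 377 CPM with Arid1a siRNAs and EGF and 341 CPM with Arid1a siRNAs alone, against 602 CPM with control siRNA and EGF and 556 CPM with control siRNA alone. Over so many genes and only 4 groups a close match is a description of these libraries, and no test was made of it. Within the list, Cdkn1b followed Cdk2 (r = 0.92) and Ccne1 (r = 0.91) over the same 11 libraries, which share their siRNA and EGF groups.

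The acinar label was checked against markers. Of 9 acinar genes 8 were expressed and Amy2a5 had 0 reads, and their summed level was 14149 to 15884 CPM with Arid1a siRNAs and EGF and 14864 to 17675 CPM with Arid1a siRNAs alone, against 13670 to 14936 CPM with control siRNA and EGF and 15323 to 17296 CPM with control siRNA alone. Most of that sum was Ctrb1, at 11278 to 14335 CPM, which was not called in any comparison. The other acinar markers moved in both directions. EGF with control siRNA gave 2 rises and 5 falls among the 8, where 16.8% of all genes rose and 18.8% fell. The median log2 change was -0.32, against -0.03 over all genes. EGF with Arid1a siRNAs gave 1 and 3 (median -0.14), where 13.0% of all genes rose and 10.4% fell. Arid1a siRNAs gave 2 rises and 4 falls without EGF (median -0.19), where 18.8% rose and 20.1% fell. With EGF they gave 2 and 3 (median -0.09), where 23.7% rose and 23.2% fell. No test was made of these counts. Cela1 and Cela2a, which encode elastases, rose with Arid1a siRNAs in both comparisons, while Ptf1a, Nr5a2 and Bhlha15, acinar transcription factors, fell in both. With EGF and control siRNA Bhlha15 rose by 1.147 on the log2 scale (edgeR adjusted p = 3.29e-05), and Cpa1, a carboxypeptidase gene, fell by 0.48 (edgeR adjusted p = 0.000162). Ins1, Ins2, Sst, Lum, Cd3e and Cdh5, genes that define other cell types, had 0 reads in every library. Of 5 islet genes only Chga was above trace level, and the islet sum was 794 to 840 CPM with Arid1a siRNAs and EGF and 626 to 768 CPM with Arid1a siRNAs alone, against 1112 to 1158 CPM with control siRNA and EGF and 701 to 752 CPM with control siRNA alone. That is the pattern of high values with control siRNA and EGF that Ccnd1 also had. The 4 duct genes summed to 10.9 to 13.3 CPM with Arid1a siRNAs and EGF and 10.3 to 12.2 CPM with Arid1a siRNAs alone, against 14.3 to 17.5 CPM with control siRNA and EGF and 14.97 to 17.98 CPM with control siRNA alone, so they were lower with the Arid1a siRNAs, as Ccne1 and Cdkn1b were. The 7 fibroblast and stellate genes, mostly Pdgfrb, summed to 319 to 326 CPM with Arid1a siRNAs and EGF, 301 to 335 CPM with Arid1a siRNAs alone and 302 to 333 CPM with control siRNA and EGF, against 281 to 287 CPM with control siRNA alone. The lowest sums were thus those of control siRNA alone, which mainly reflects Pdgfrb. Other genes of this list moved differently. Col1a2 changed with Arid1a siRNAs by -0.66 without EGF (edgeR adjusted p = 0.0445) and -0.78 with EGF (edgeR adjusted p = 0.00652). Col3a1 changed with EGF by -0.83 with Arid1a siRNAs (edgeR adjusted p = 0.0192) and -0.79 with control siRNA (edgeR adjusted p = 0.0288). The 4 endothelial genes, mostly Tek, summed to 48.1 to 55.3 CPM with Arid1a siRNAs and EGF and 42.6 to 50.9 CPM with Arid1a siRNAs alone, against 38.6 to 46.6 CPM with control siRNA and EGF and 43.9 to 45.4 CPM with control siRNA alone. Both tested endothelial genes, Kdr and Tek, rose with Arid1a siRNAs and EGF, as Rb1 and 23.7% of all genes did. Cd68, the only immune marker that passed the filter, had 8.11 to 9.23 CPM with Arid1a siRNAs and EGF and 5.83 to 6.99 CPM with Arid1a siRNAs alone, against 6.35 to 7.61 CPM with control siRNA and EGF and 4.96 to 5.59 CPM with control siRNA alone. EGF raised it by 0.41 on the log2 scale with Arid1a siRNAs (edgeR adjusted p = 0.0305) and by 0.41 with control siRNA (edgeR adjusted p = 0.0383), the comparisons in which Cdkn1b and Rb1 fell. The part of these markers in the G1 results was not tested. In RNA from whole cultures, fewer cells in a given state and less RNA per cell cannot be told apart.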

How the data were processed

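The 11 libraries were made from poly(A) RNA by an unstranded method (TruSeq RNA v2). Per the submitters' processing notes, the tools were TopHat2 2.1.1, HTSeq 0.9.1, Cuffnorm 2.2.1.2 and Cuffdiff 2.2.1.5, and the build was mm9. The annotation and counting settings are not given in the sources used here. The authors deposited raw read counts per gene symbol for each library, and 1 table of FPKM. The table has 3 columns for control siRNA where the labels name 2 libraries, and these 3 were left out. No coordinates are given by the files, so positions and overlapping neighbours were taken from RefSeq on GRCm38.p6.

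The main test was that of edgeR 4.0.16 under R 4.3.3. Filtering by filterByExpr (minimum count 10, minimum total 15) kept 13343 of 23284 (57.3%). TMM factors scaled the libraries, and 4 group means were fitted over all 11 libraries by the robust quasi-likelihood method (7 residual and 7.45 prior degrees of freedom, dispersion 0.00490, biological coefficient of variation 7.00%). The 5 contrasts were tested two-sided with Benjamini-Hochberg adjustment over all 13343 genes at 0.05. Alternatives were RLE and upper-quartile factors, no filter, DESeq2 1.42.0, limma-voom (limma 3.58.1), only the groups compared, the replicate block, each library left out, and limma on log2(FPKM + 1).

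Replicate numbers come from the sample titles. Between Arid1a siRNAs with EGF and control siRNA with EGF, deviations from the group means had r = 0.14, 0.30 and 0.13 for libraries of the same number. Libraries of unlike number had r of -0.19 to 0.07. Deviations from a group mean sum to 0, so r above 0 for like numbers goes with lower r for unlike ones. The labels do not say that libraries were paired. The main fit had no pairing term, and the replicate block was run as an alternative. Library pairs within groups differed by a chi-square of 1.57 to 10.9 per degree of freedom over genes with at least 20 reads, so none was a copy. The largest value was that of the 2 libraries of control siRNA alone. The smallest was that of replicates 1 and 3 of Arid1a siRNAs with EGF. Depth was 11947581 to 14143225 reads with Arid1a siRNAs and EGF, 10279763 to 15710575 with Arid1a siRNAs alone, 13547278 to 16796787 with control siRNA and EGF, and 14059719 and 19773007 with control siRNA alone. The 95% intervals come from the edgeR fit and include the spread between libraries, while the floor of 3 reads covers counting error only.

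The G1 genes, the list of 34 others and the marker lists were chosen with earlier results of these data known. Named were all 10 G1 genes, Arid1a and Dusp6 as checks, the 4 called genes of the 34 with the smallest p in each comparison, and the 3 genes with the highest Pearson r to Ccnd1 and Ccne1 on log2 CPM (mean of at least 3, prior count 2), passing over clone-type symbols. Overlapping neighbours were named by position. Single marker genes were named after their values were seen. The sum of the immune marker list is not reported here.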

Additional observations from a re-analysis of the deposited data

Results flagged for a closer look

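Cdkn1c, the p57 inhibitor of the wider G1 list, was set apart because the EGF response differed between cells with the 2 kinds of siRNA by a test of the difference itself. The interaction was 0.48 on the log2 scale (edgeR adjusted p = 0.0464), and it passed the threshold in 4 of 17 alternative fits. The replicate block gave an edgeR adjusted p of 0.105, and 1 of the 11 fits that each leave out a library passed. EGF changed Cdkn1c by -0.29 with Arid1a siRNAs and by -0.77 with control siRNA, and the levels were 90.5 ± 4.22 CPM (SD, n = 3) with EGF and 111 ± 12.03 CPM (n = 3) without it with Arid1a siRNAs, against 92.8 ± 2.44 CPM (n = 3) and 158 ± 5.18 CPM (n = 2) with control siRNA. Arid1a siRNAs changed it by -0.52 without EGF (edgeR adjusted p = 0.000116), and the log2 difference with EGF was -0.04 (edgeR adjusted p = 0.711). It was 1 of 34 genes examined in this way beside the 8 tested G1 genes, none of which passed by edgeR (2 with an unadjusted p under 0.05), DESeq2 (0) or limma-voom (0). Over all genes, edgeR called the interaction higher for 0.562% and lower for 0.382%.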

How the results depend on the processing

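Of 726 alternative values of the 8 G1 genes, 684 kept their direction and side of the threshold, 15 lost a call, 1 gained one and 26 changed sign, all of the last for values that were not called. The number of G1 genes called ran from 4 to 5 for Arid1a siRNAs without EGF, from 5 to 6 with EGF and from 2 to 4 for EGF with Arid1a siRNAs. The highest of these, with no filter, added Ccnd2, which had 0 reads in all 3 libraries with Arid1a siRNAs alone. For EGF with control siRNA leaving out each library gave 2 to 4, with the 2 without control siRNA replicate 1, and for the interaction all fits gave 0. Over all genes the interaction had 126 calls, 55 to 153 with each library left out, 56 with the replicate block and 177 with DESeq2. The lowest of these was without replicate 1 of control siRNA with EGF, and the cause was not tested.

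The replicate block ended 1 call of the 8 G1 genes, Cdk2 for EGF with control siRNA (-0.15, edgeR adjusted p = 0.0768). It changed none for Arid1a siRNAs with EGF, where the same-number r was above 0 for every number. In the other comparisons the same-number r was -0.19 and -0.38 for EGF with control siRNA and 0.05 and 0.32 for the Arid1a siRNAs in cells without EGF. It was 0.04, -0.30 and -0.11 for EGF with Arid1a siRNAs.

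Signs changed for EGF with control siRNA in Cdk4 with RLE factors (0.00206), no filter (0.0140), only the groups compared (0.0105) and DESeq2 (0.00266), and in Ccne1 with the replicate block (-0.000321). The Ccnd3 interaction was -0.00335 with RLE factors, -0.00401 with upper-quartile factors, -0.0117 with no filter, -0.0195 with the replicate block and -0.00347 with DESeq2. Leaving out each library gave -0.0476 to 0.0324 for Cdk4 and -0.0572 to 0.121 for Ccne1 under EGF with control siRNA. It gave -0.0716 to 0.0718 for Ccne2, -0.0103 to 0.0933 for Cdk4 and -0.0251 to 0.000266 for Cdk2 under EGF with Arid1a siRNAs, and -0.0611 to 0.0568 for the Ccnd3 and -0.00500 to 0.0989 for the Cdk4 interaction.

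The Cdkn1c interaction lost its call with RLE factors (edgeR adjusted p = 0.0573), upper-quartile factors (0.0643), the replicate block (0.105) and in 10 of 11 fits with a library left out (0.0602 to 0.142). It kept it with no filter (0.0182), limma-voom (0.0465), DESeq2 (0.0111) and without replicate 3 of the Arid1a siRNAs alone (0.00614). Its direction held in all of them. The median of all genes moved by less than 0.1 log2 units under every other scaling. Limma on log2(FPKM + 1) could be run only for Arid1a siRNAs with EGF and EGF with Arid1a siRNAs, and Ccnd1 fell below its filter. At 29 to 57 reads per library, Ccnd1 rests on the fewest reads of the 8 tested genes.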
